A study of Mus musculus with 39 samples.

Results

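The glucocorticoid target genes described here are Tsc22d3, Fkbp5, Sgk1, Klf9, Zbtb16, Dusp1, Errfi1, Cebpd, Mt1 and Mt2, 10 genes that are widely used as readouts of the glucocorticoid receptor. They were chosen by name from the gene count table, which holds 39676 genes. Of the 10, 9 had a row in the table and all 9 passed the filter on low counts in every comparison; Klf9 was not analysed here. RNA-seq was performed on 39 AB1-HA tumours, a mouse mesothelioma line that carries the influenza haemagglutinin gene, grown subcutaneously on both flanks of BALB/c mice. Mice received PBS (n = 10), tretinoin alone (n = 9), immune checkpoint therapy (ICT, anti-CTLA-4 plus anti-PD-L1, n = 10) or tretinoin+ICT (n = 10). By the sample labels, tretinoin was injected intraperitoneally at 5 mg/kg for 5 doses from day 4, ICT started on day 7, and 1 tumour per mouse was removed on day 9, so every tumour was sampled at a single early time point. In the tretinoin+ICT group the tumour left in place decided the label, Responder (n = 6) or Non-responder (n = 4), so the label describes a tumour other than the one sequenced. The study's text gives other tretinoin schedules than the labels, with fewer doses for this experiment. For its comparison of tretinoin with PBS tumours it also gives a higher daily dose than the labels. The study's methods give PBS with DMSO as the control for tretinoin, while the sample labels name the control group only as PBS. All tumours derive from 1 cell line.

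Glucocorticoids are steroid hormones of the adrenal cortex that cross the cell membrane and bind the glucocorticoid receptor, which is held in the cytoplasm by chaperones. The bound receptor enters the nucleus, binds DNA at palindromic glucocorticoid response elements and raises the transcription of feedback and anti-inflammatory genes. Most of its targets answer to other signals too: the metallothioneins to zinc and inflammatory cytokines, Dusp1, Errfi1 and Sgk1 to growth factors and stress, and Cebpd to acute-phase cytokines. The receptor acts in tumour cells, leukocytes and stroma alike, and in bulk tumour RNA fewer cells of a type and less RNA per cell cannot be told apart.

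Total counts ranged from 14033046 to 37951183 per tumour, with a median of 18548168. Cyp26b1, the retinoic acid hydroxylase that is itself induced by retinoic acid, rose after tretinoin by 5.19 on the log2 scale (SE 0.13, edgeR quasi-likelihood test with Benjamini-Hochberg adjustment, adjusted p = 1.99e-16). This checks the tretinoin labels and not the ICT labels. Without tretinoin, Cyp26b1 was also higher after ICT than after PBS, by 1.08 (SE 0.24). The first digit of each tumour name splits the tumours into 8 name series of 4 or 5, 2 per treatment and each with a single treatment, so name series and treatment cannot be told apart; what the digit stands for is not given in the sources used here. Of the mesothelial and mesothelioma markers, 6 had a row, with summed levels of 59.8 to 96.6 CPM (counts scaled to a common library total) per tumour, and Upk3b was at 0 in every tumour of the tretinoin and tretinoin+ICT groups, so the label of the tumour rests on the cell line and not on these low markers. Skeletal muscle markers varied from 321 to 3634 CPM between tumours.

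Because these genes and the further lists were chosen with results of these data known, their values are given as a description and without p-values. Levels are counts divided by DESeq2 size factors over the 39 tumours, called normalized counts. A gene is said to have risen or fallen where its adjusted p in the edgeR fit across all genes was below 0.05, and to have been called where the log2 fold change was also at least 1 in size, which was the study's own threshold.

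Before the values, the promoters that bear on how these genes are grouped are shown. RefSeq windows of 250 bases before a transcription start (build GRCm38.p6) were found for 7 of the 9 genes, 15 windows in all; Zbtb16 and Cebpd had none. The windows are written 5′ to 3′ on the gene's own strand, with the motif named for each in capitals. For Sgk1, window 5 of 6 is shown (chr10:21993640-21993889, plus strand) because it holds a full glucocorticoid element, AGAACA and TGTTCT with 3 bases between; a further lone half-site, TGTTCT at 242 bases before the start, is left in lower case.
Sgk1: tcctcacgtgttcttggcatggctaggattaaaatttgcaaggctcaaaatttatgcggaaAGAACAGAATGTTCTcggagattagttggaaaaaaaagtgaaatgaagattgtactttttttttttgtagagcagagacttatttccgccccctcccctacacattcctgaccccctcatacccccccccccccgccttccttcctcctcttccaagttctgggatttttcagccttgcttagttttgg
For Dusp1 (chr17:26508473-26508722, minus strand) and Errfi1 (window 2, chr4:150854820-150855069, plus strand) the capitals mark the cAMP element TGACGTCA.
Dusp1: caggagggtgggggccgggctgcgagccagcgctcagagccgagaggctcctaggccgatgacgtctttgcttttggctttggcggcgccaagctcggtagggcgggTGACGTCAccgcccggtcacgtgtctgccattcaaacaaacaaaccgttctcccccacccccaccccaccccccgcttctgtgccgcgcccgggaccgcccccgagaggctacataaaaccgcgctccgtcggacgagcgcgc
Errfi1: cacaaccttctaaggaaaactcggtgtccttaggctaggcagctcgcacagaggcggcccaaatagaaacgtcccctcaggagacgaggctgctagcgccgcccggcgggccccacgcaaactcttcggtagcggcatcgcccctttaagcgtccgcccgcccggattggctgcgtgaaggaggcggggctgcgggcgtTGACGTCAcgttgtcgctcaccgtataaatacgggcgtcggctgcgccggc
For Mt1 (chr8:94178839-94179088, plus strand) and Mt2 (chr8:94172368-94172617, plus strand) the capitals mark the core of the metal response element, TGCACNC or TGCGCNC on either strand.
Mt1: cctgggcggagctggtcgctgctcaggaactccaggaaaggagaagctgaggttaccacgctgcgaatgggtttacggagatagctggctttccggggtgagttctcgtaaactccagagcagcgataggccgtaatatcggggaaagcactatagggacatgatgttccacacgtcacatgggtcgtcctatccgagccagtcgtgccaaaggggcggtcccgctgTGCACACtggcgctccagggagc
Mt2: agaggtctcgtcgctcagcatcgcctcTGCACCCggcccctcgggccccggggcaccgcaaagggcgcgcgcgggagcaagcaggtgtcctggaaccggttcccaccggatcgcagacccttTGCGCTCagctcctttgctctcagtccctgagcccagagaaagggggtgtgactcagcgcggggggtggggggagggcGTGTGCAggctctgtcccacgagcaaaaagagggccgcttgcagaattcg

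The full glucocorticoid element lay 189 bases before the Sgk1 start and was found in 3 of 32851 promoter windows of all genes (0.00913%); of the members' windows it was in 1 of 15. Its half-site AGAACA, which the full element contains, was in 4 windows of Tsc22d3 and Sgk1, against 16.1% of all windows. The cAMP element lay 143 bases before the Dusp1 start and 51 bases before that of Errfi1, and 1.55% of all windows held it. The metal core, present in 21.4% of all windows, occurred once before Mt1, 23 bases from the start, and 3 times before Mt2, at 223, 128 and 50 bases. The retinoic acid element, AGGTCA repeated with 5 bases between, was in 0 of the 15 windows and in 3 of 32851 overall. Both strands were searched. A match is a stretch of letters and not a measured binding site, and a window without one says only that these letters are not within 250 bases of that start.

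Most of the 9 genes were higher after ICT. Against PBS, 8 rose and 4 were called (Tsc22d3, Dusp1, Mt1 and Mt2), and Zbtb16 alone did not pass; across all 14155 genes tested, 14.1% rose and 2.28% were called higher. In 6 of the 9 (Tsc22d3, Dusp1, Errfi1, Cebpd, Mt1 and Mt2) every ICT tumour was above every PBS tumour, which 0.417% of all genes showed in this direction; 7.15% of all genes fell. After tretinoin alone 4 rose (Dusp1, Errfi1, Mt1 and Mt2) and 0 were called, where 11.5% of 14340 genes rose, 8.95% fell and 1.49% were called higher; DESeq2 also called 0. Adding tretinoin to ICT moved 0 of the 9 past the adjusted threshold, where 1.57% of 14202 genes rose and 0.422% fell. DESeq2 gave 0 as well, and not passing does not show that a gene was unchanged. In the same comparison 0.366% of all genes were called higher and 0.282% lay wholly higher, against 0 members for both. Adding ICT to tretinoin raised 8, of which 4 were called (12.3% of 14393 genes rose, 9.01% fell and 1.87% were called higher). The combination against PBS likewise raised 8, of which 4 were called, and 5 lay wholly above PBS (25.7%, 5.45% and 3.79% of 14265 genes, in that order, while 24.5% of genes fell). These shares are printed beside the counts and nothing is read from them, since the contrast that led to the list is not recorded, and comparisons that share a group of tumours are not independent of each other.

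**Figure D1:**
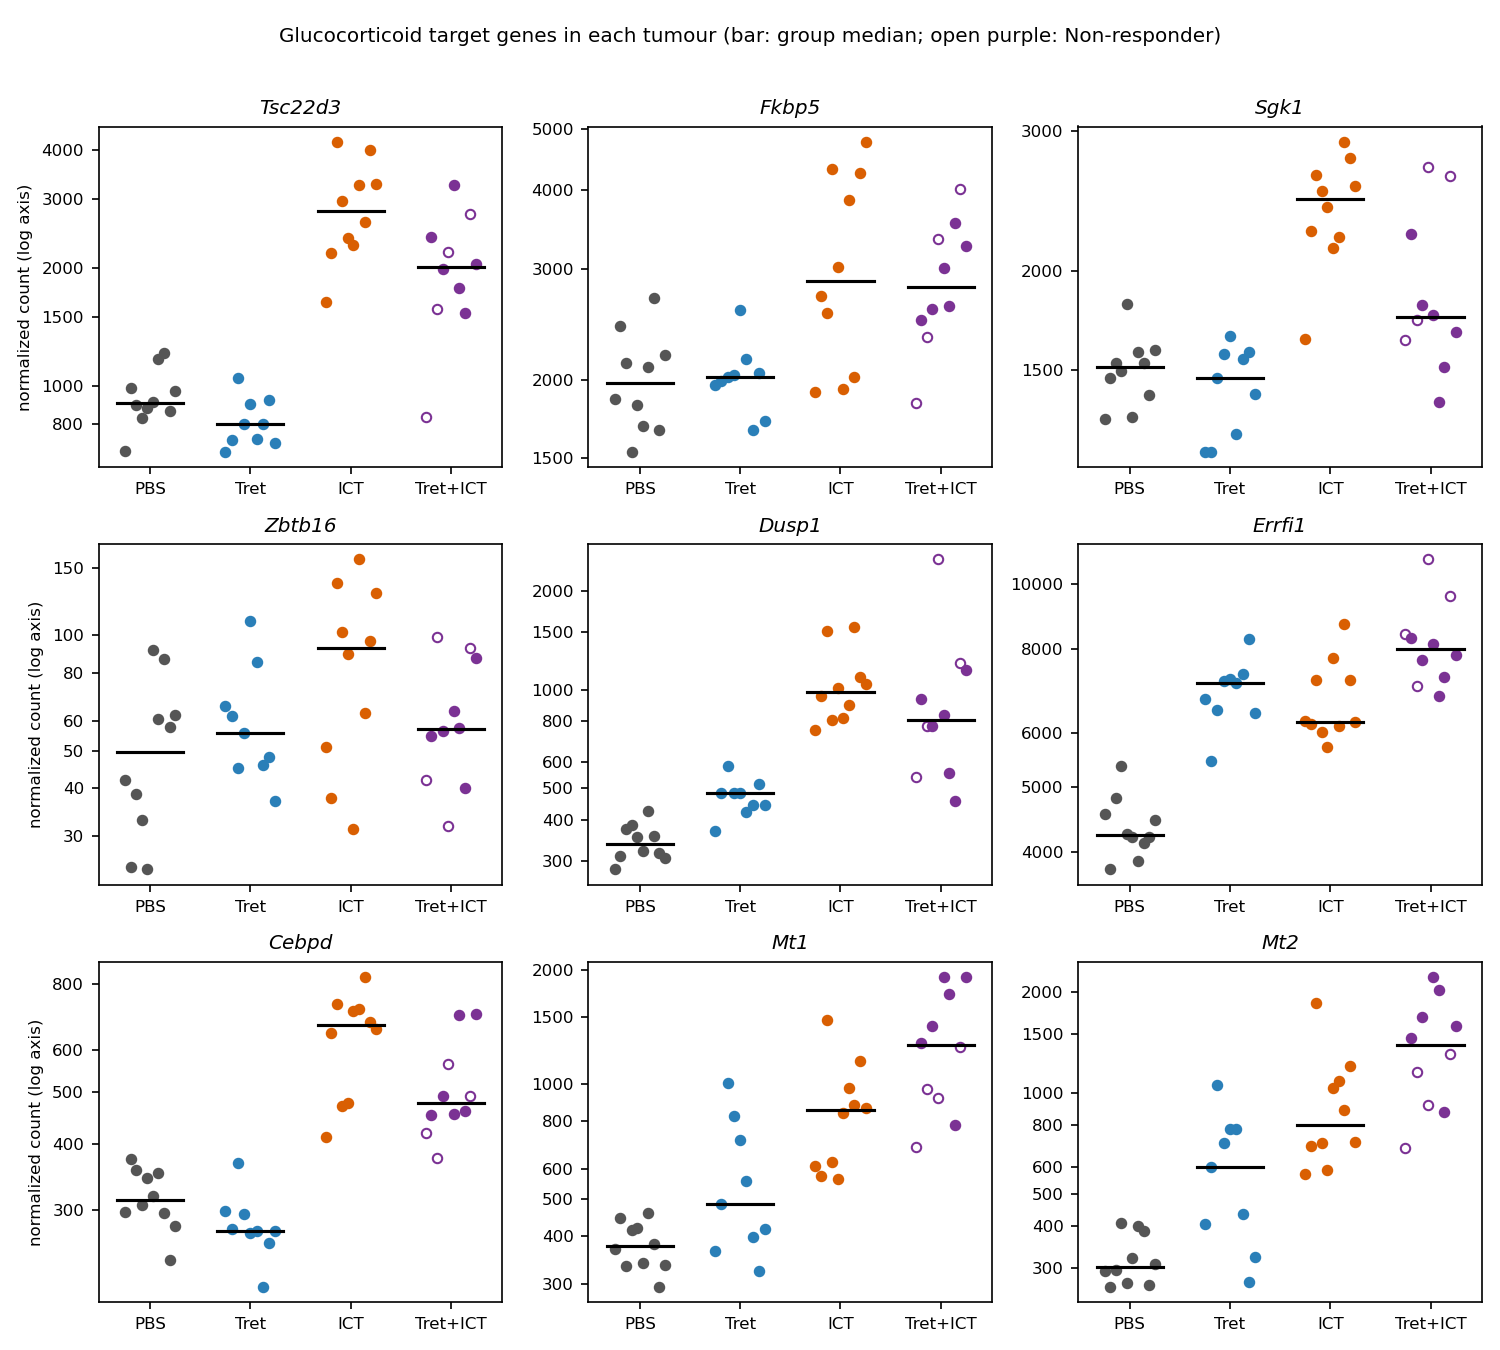
Normalized counts on a log axis for each of the 9 genes, 1 point per tumour, in the 4 treatment groups; bars mark group medians and open purple points are Non-responders. The ICT tumours lie wholly above the PBS tumours for Tsc22d3, Dusp1, Errfi1, Cebpd, Mt1 and Mt2, whereas for Errfi1 the 9 tretinoin tumours also lie above PBS.

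Tsc22d3 (ENSMUSG00000031431.13, chrX:140539528-140600659 on the minus strand, GRCm38 in GENCODE M21) encodes the glucocorticoid-induced leucine zipper protein, which restrains NF-kB and AP-1. In PBS tumours its normalized count was 682 at the lowest, 901 at the median and 1209.6 at the highest. In tretinoin tumours the lowest, median and highest were 678, 797 and 1049. After ICT they were 1640.4, 2792 and 4192. The 10 ICT tumours did not overlap with PBS, while the tretinoin tumours lay within the PBS range apart from 1 just below it. The mean rose from 938 ± 157 (SD, n = 10) to 2881 ± 812 (SD, n = 10), a log2 fold change of 1.61 (SE 0.15). The difference was 1.38 to 1.86 over the 4 pairings of an ICT with a PBS name series. In tretinoin+ICT tumours the lowest, median and highest were 831, 2016 and 3257. A single tumour of the combination, Non-responder replicate 1, lay within the PBS range and the other 9 lay above it. Between the combination and ICT alone the log2 difference was -0.50 (SE 0.20) and did not pass.

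Fkbp5 (ENSMUSG00000024222.16, chr17:28399094-28517527, minus strand) encodes a co-chaperone that binds the receptor complex and lowers its affinity for hormone, and so is part of a feedback loop. Its lowest, median and highest normalized counts were 1536, 1977 and 2691 in PBS tumours. They were 1665, 2020.3 and 2578 after tretinoin. They were 1915, 2867 and 4765 after ICT, and 1834, 2809.8 and 4016 after the combination. All 4 groups overlapped at their lower ends, and 6 of 10 ICT tumours were above the highest PBS tumour. The log2 fold change was 0.64 (SE 0.17) for ICT against PBS and 0.01 (SE 0.10) for tretinoin against PBS, of which the first passed. Fkbp5 passed in none of the 4 pairings of ICT and PBS name series taken on their own (log2 fold changes of 0.48 to 0.79), each of which has 5 tumours per arm.

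Sgk1 (ENSMUSG00000019970.15, chr10:21882184-21999903, plus strand) encodes a serum- and glucocorticoid-regulated kinase that acts on ion channels and cell survival. PBS tumours had a lowest, median and highest normalized count of 1301, 1514 and 1817. Tretinoin tumours had 1184, 1466 and 1655. ICT tumours had 1643, 2464 and 2904, and combination tumours 1367, 1748 and 2699. Of the ICT tumours 9 of 10 were above every PBS tumour, compared with 3 of 10 combination tumours. Sgk1 rose by a log2 fold change of 0.67 (SE 0.08) after ICT and of 0.35 (SE 0.11) after the combination, each against PBS. The difference between the combination and ICT alone, -0.34 (SE 0.12), did not pass.

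Dusp1 (ENSMUSG00000024190.6, chr17:26505590-26562128, minus strand) encodes a phosphatase that switches off the p38 and JNK kinases. The lowest, median and highest normalized counts were 283, 338 and 427 in PBS tumours. They were 371, 483 and 584 in tretinoin tumours. They were 753, 983 and 1549 in ICT tumours. The groups stepped upward, with 7 of 9 tretinoin tumours above every PBS tumour and all ICT tumours above both. Of all genes, 0.417% had ICT tumours wholly above PBS. The share with ICT tumours wholly above tretinoin tumours was not computed, so nothing is read from that separation. The mean was 345 ± 44.0 (SD, n = 10) in PBS and 1044 ± 278 (SD, n = 10) after ICT, a log2 fold change of 1.60 (SE 0.13), with 1.53 to 1.66 over the pairings of name series. After tretinoin alone the log2 fold change was 0.45 (SE 0.08). Combination tumours ran from 457 through a median of 807 to 2491, and the highest of them, Non-responder replicate 5, was above every ICT tumour. Without that tumour the log2 difference between the combination and ICT alone went from -0.10 to -0.37, and neither passed. Without it, Dusp1 was also no longer called in the combination against tretinoin alone, with a log2 fold change of 0.78 where all tumours gave 1.05.

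Errfi1 (ENSMUSG00000028967.10, chr4:150853919-150868892, plus strand) encodes an inhibitor of the epidermal growth factor receptor family and was the member with the highest level per kilobase in PBS tumours. Its lowest, median and highest normalized counts in PBS tumours were 3765, 4229.6 and 5368. They were 5458, 7132 and 8297 after tretinoin. They were 5720.4, 6248 and 8727 after ICT, and 6815, 8008 and 10882 after the combination. Each treated group lay wholly above PBS, and the 3 treated groups overlapped with one another. Errfi1 was the single member whose tretinoin tumours were all above PBS, which 1.49% of all genes showed in this direction. Its log2 fold changes against PBS were 0.67 (SE 0.07) for tretinoin, 0.63 (SE 0.08) for ICT and 0.92 (SE 0.08) for the combination, and all 3 passed. All 10 combination tumours were above the ICT median, but the log2 difference of 0.28 (SE 0.09) from ICT alone did not pass; without ICT replicate 8, the highest ICT tumour, it passed with 0.34. Against tretinoin alone the combination gave 0.25 (SE 0.09), which passed but lost its pass in 13 of the 19 fits that left out 1 tumour (combination replicates 1, 2, 4, 5, 6 and 9 and tretinoin replicates 1, 2, 4, 5, 6, 7 and 9), with 0.19 to 0.26 in these.

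Zbtb16 (ENSMUSG00000066687.5, chr9:48654297-48836222, minus strand) encodes the transcriptional repressor PLZF, which is also a lineage factor of innate-like lymphocytes. It was the least abundant member, with a lowest, median and highest normalized count of 24.5, 49.8 and 91.7 in PBS tumours. After tretinoin they were 36.9, 55.6 and 109. After ICT they were 31.3, 93.0 and 158, and after the combination 31.8, 56.9 and 98.9. The groups overlapped throughout, and 5 of 10 ICT tumours were above every PBS tumour. Zbtb16 did not pass in any comparison, its log2 difference after ICT being 0.76 (SE 0.30). That difference passed in DESeq2, in a single fit of all 39 tumours, and when PBS replicate 6, ICT replicate 2 or ICT replicate 6 was left out (0.85 to 0.89). The PBS tumours of name series 1 (mean 32.7) and name series 5 (mean 71.7) did not overlap, a ratio of 2.20, which 2.93% of 14977 genes showed between these series in either direction. When each ICT name series was set against each PBS name series, the log2 difference was 0.20 and 0.40 against PBS series 5 and 1.34 and 1.54 against PBS series 1. No other member separated the name series of a treatment.

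Cebpd (ENSMUSG00000071637.5, chr16:15887286-15891031, plus strand) encodes an acute-phase transcription factor. The lowest, median and highest normalized counts were 242, 313 and 375 in PBS tumours. They were 215, 273 and 368 in tretinoin tumours. They were 412, 669 and 824 in ICT tumours, and 375, 477 and 701 in combination tumours. Both ICT-treated groups lay above PBS without overlap. For the combination the margin was narrow, with 375.5 at its lowest and 374.7 at the PBS highest. The combination also lay wholly above tretinoin alone, which 0.299% of all genes did in this direction. The log2 fold change of ICT against PBS was 0.99 (SE 0.11), with 0.69 to 1.27 over the pairings of name series, which put it just under the fold minimum. Leaving out PBS replicate 2, 3, 5 or 7 or ICT replicate 1, 4 or 5 brought it to 1.01 to 1.05, past that minimum.

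**Figure D2:**
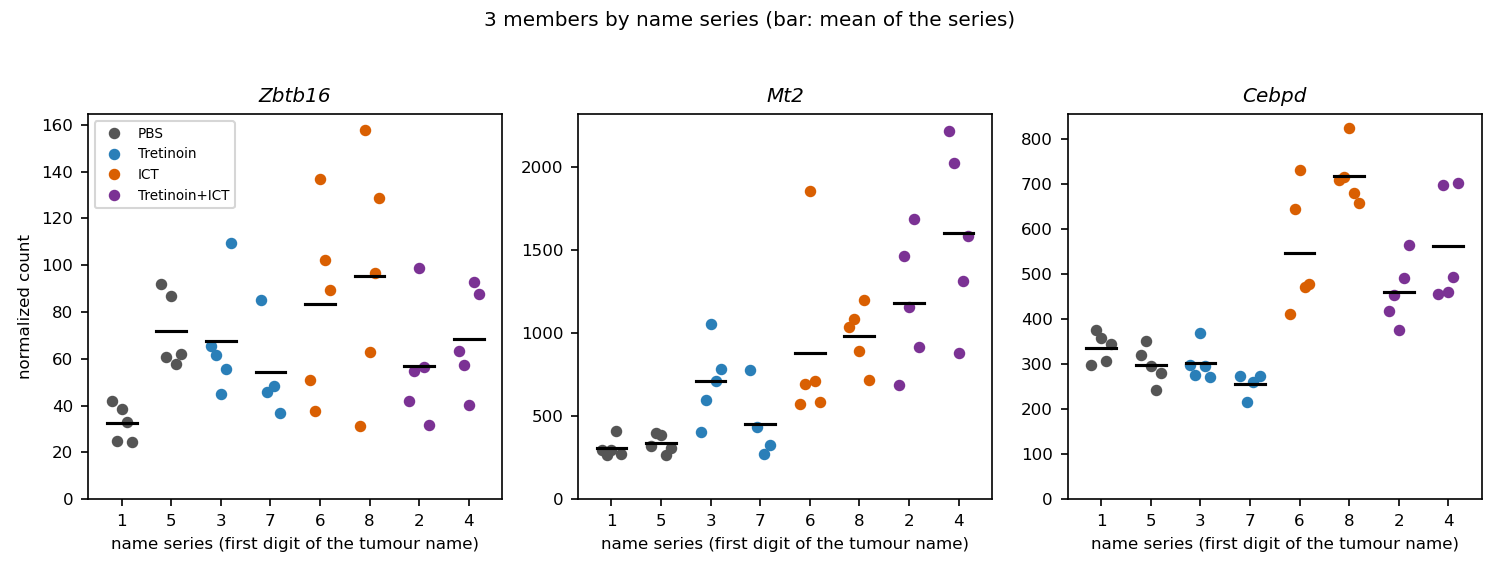
Normalized counts of Zbtb16, Mt2 and Cebpd by name series, the first digit of the tumour name, with 1 point per tumour, colours for the treatment and bars for the series mean. The PBS series 1 and 5 are apart for Zbtb16 and overlap for Mt2 and Cebpd.

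Mt1 (ENSMUSG00000031765.8, chr8:94179082-94180327, plus strand) and Mt2 (ENSMUSG00000031762.7, chr8:94172664-94173568, plus strand) encode metallothioneins, small cysteine-rich proteins that bind zinc and copper. The genes lie 5513 bases apart and encode related proteins. Their transcripts were not compared here, and how reads that map to more than 1 gene were counted is not given in the sources used here, so whether counts were shared between Mt1 and Mt2 is not known. The lowest, median and highest normalized counts of Mt1 were 294, 376 and 459 in PBS tumours. They were 325, 486 and 1006 after tretinoin. They were 566, 854 and 1474 after ICT, and 683, 1269.8 and 1915 after the combination. Mt1 therefore had its highest median in the combination, and both ICT-treated groups lay above PBS without overlap. Mt2 ran from 263 through a median of 302 to 409.6 in PBS tumours and from 272 through 598 to 1054 in tretinoin tumours. It ran from 571 through 802 to 1851 after ICT and from 685 through 1385 to 2216 after the combination. For Mt2, 6 of 9 tretinoin tumours were above every PBS tumour and 3 lay within the PBS range.

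For Mt2, the log2 fold changes against PBS were 0.89 (SE 0.21) for tretinoin, 1.53 (SE 0.19) for ICT and 2.12 (SE 0.19) for the combination, the last being the highest value of any member in any comparison. For Mt1 they were 0.58 (SE 0.18), 1.17 (SE 0.16) and 1.77 (SE 0.17). The tretinoin values depended on the name series. Series 3 against the PBS series gave up to 0.91 for Mt1 and 1.20 for Mt2, while series 7 gave as little as 0.09 and 0.43. Mt1 lost its pass after tretinoin in 8 of the 19 fits that left out 1 tumour (PBS replicates 1, 3, 6, 9 and 10 and tretinoin replicates 3, 4 and 5), with 0.43 to 0.57 in these. Between the combination and ICT alone, Mt1 and Mt2 differed by 0.59 (SE 0.21) and 0.58 (SE 0.23), which did not pass. Without ICT replicate 3, the highest ICT tumour for both, they passed with 0.70 and 0.74. The same omission took the count of all genes called from 56 to 123.

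**Figure D3:**
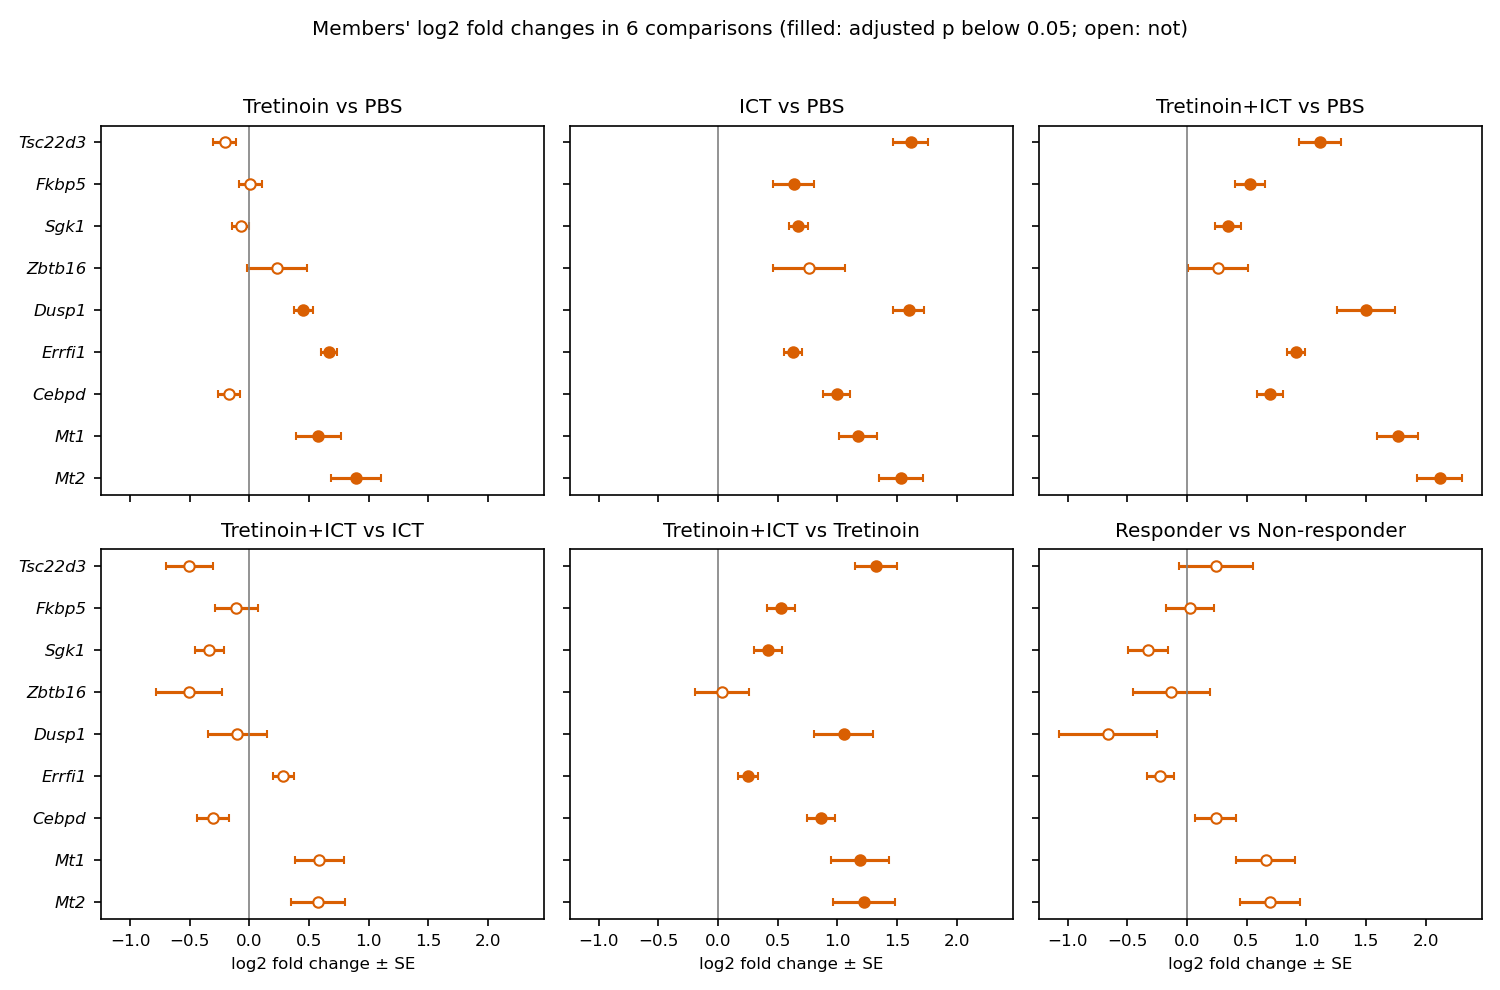
Log2 fold changes with standard errors for the 9 genes in 6 comparisons; filled points passed an adjusted p of 0.05 and open points did not. All values for ICT against PBS are above 0, from 0.63 to 1.61, whereas those for tretinoin+ICT against ICT lie from -0.50 to 0.59 and none passed.

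Ordered by group median, 6 of the 9 genes (Tsc22d3, Fkbp5, Sgk1, Zbtb16, Dusp1 and Cebpd) were highest after ICT alone and second after the combination, while Errfi1, Mt1 and Mt2 were highest after the combination. Of the 27 pairs of neighbours in these orders, 25 overlapped. The 2 that did not were PBS and ICT for Errfi1 and, by a narrow margin, PBS and the combination for Cebpd. The ratio of the highest to the lowest group median was between 1.45 for Fkbp5 and 4.59 for Mt2. On the scale of median CPM per kilobase of exon, Errfi1 had 65.9 in PBS tumours, followed by Mt2 at 28.6, Sgk1 at 17.2, Mt1 at 16.9, Fkbp5 and Tsc22d3 both at 11.6, Dusp1 at 5.69, Cebpd at 4.66 and Zbtb16 at 0.525. In the combination Mt2, at 125, was above Errfi1, at 115, on the same scale. Gene lengths came from GENCODE M21 on GRCm38, and the study's build is given as mm11.

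Whether the response to tretinoin differed in the presence of ICT was asked with the interaction term over all 39 tumours. Of the 9 members, 0 passed in edgeR and 0 in DESeq2. Of 14977 genes, 0.0401% passed with a positive and 0.267% with a negative term. The members' terms ran from -0.74 (SE 0.39) for Zbtb16 to 0.0044 (SE 0.30) for Mt1, with a median of -0.30. The median over all genes was also below 0, at -0.02. The term was -0.39 (SE 0.12) for Errfi1 and -0.55 (SE 0.28) for Dusp1.

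Responders and Non-responders of the combination were compared within the 10 tumours of that group. In edgeR 0 of the 9 members and 0 of 14604 genes passed (0.00% in either direction), with 3302 genes and 2 members at an unadjusted p below 0.05, and DESeq2 called 121 genes and passed 1 member, Mt2, below the fold minimum. The metallothioneins and Dusp1 had the members' widest differences. Mt1 was 683, 974, 923 and 1257 in the 4 Non-responders and ran from 782 through a median of 1573 to 1915 in Responders. Mt2 was 685, 1157, 918 and 1309.7 in Non-responders and ran from 878 through 1634 to 2216 in Responders. For both genes 5 of 6 Responders lay above every Non-responder and the sixth, replicate 8, lay among them. The log2 differences were 0.66 (SE 0.25) and 0.70 (SE 0.25) and did not pass. Leaving out replicate 8, the Responder that lay among the Non-responders, gave 0.77 and 0.80, which passed. The same omission took the count of all genes called from 0 to 205, so nothing is read from these passes.

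Dusp1 was 543, 773, 2491 and 1207 in Non-responders and ran from 457 through 807 to 1151 in Responders. The log2 difference of -0.66 (SE 0.41) went to -0.10 without Non-responder replicate 5. Sgk1 was 1637, 1734, 2699 and 2636 in Non-responders, of which the last 2 were above every Responder (1367, 1718 and 2228 at the lowest, median and highest). Errfi1 showed the same pair on top, with 8444, 7064, 10882 and 9606 in Non-responders and 6815, 7779 and 8312 in Responders. No member separated the labels without overlap, which 2.17% of all genes did with Responders higher and 3.28% with Responders lower. Summed macrophage markers were 2169.9 CPM or more in the 6 Responders and 2086 CPM or less in the 4 Non-responders. Other markers differed more. The median log2 difference of Responders from Non-responders was 0.32 for macrophage, 0.77 for T cell, 0.53 for neutrophil and -0.58 for skeletal muscle markers. Of these markers 0 passed. The part of these cells in the members' values was not tested.

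The members were next compared with one another within groups, after the mean of each treatment group had been subtracted from log2 CPM. These correlations describe 39 tumours that share library and depth effects, and no p-value is given. Of 36 pairs, 32 were above 0, with a median Pearson r of 0.29, and 10 were above 0.5. The same values over pairs of other genes were not computed, so nothing is read from these counts. Mt1 and Mt2 had the highest value, 0.90, and within PBS tumours alone it was 0.37. Sgk1 and Dusp1 followed with 0.74, Tsc22d3 and Mt1 with 0.62, Cebpd and Mt1 with 0.62, and Tsc22d3 and Fkbp5 with 0.59. The lowest was -0.20 between Zbtb16 and Errfi1. Single tumours were extreme for several members at once: ICT replicate 1 was the lowest of its group for 6 of the 9, ICT replicate 8 the highest for 4, tretinoin replicate 3 the highest for 5, and combination replicate 1 the lowest for 4.

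**Figure D4:**
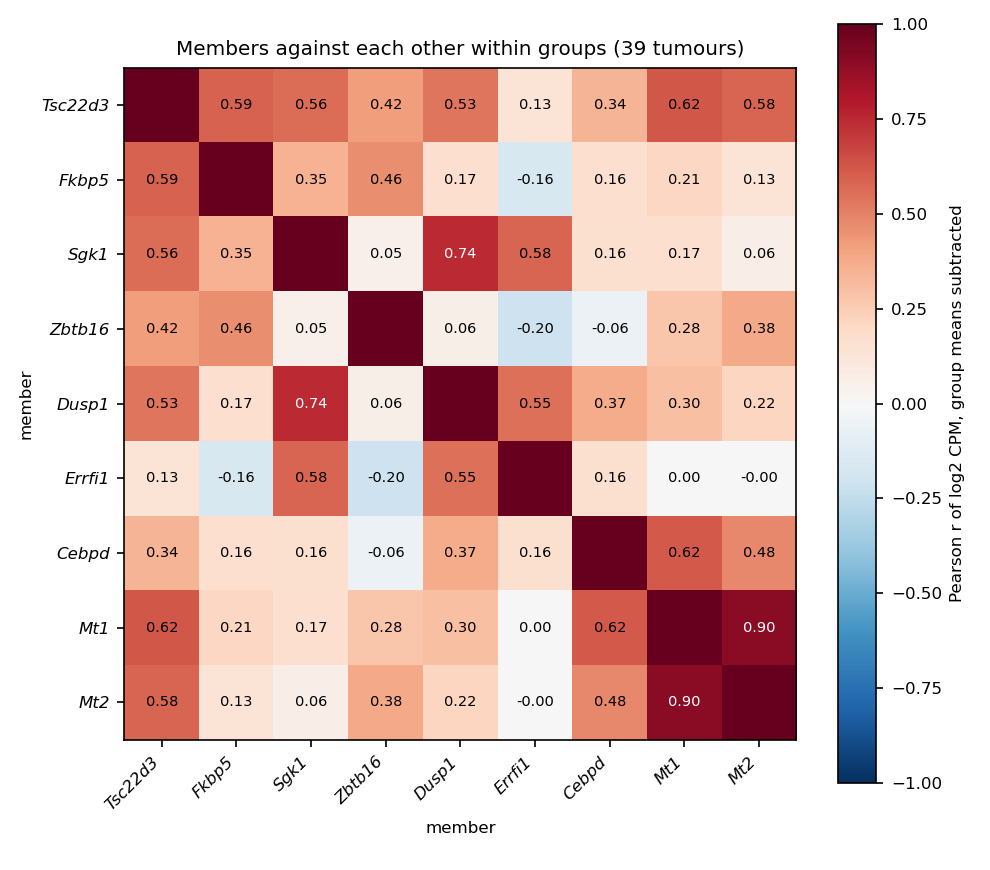
Pearson r between each pair of the 9 genes over 39 tumours, from log2 CPM with the mean of each treatment group subtracted; red is positive and blue negative. Mt1 with Mt2 (0.90) and Sgk1 with Dusp1 (0.74) stand highest, and Zbtb16 with Errfi1 is lowest (-0.20).

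Among 14977 genes, those outside the list that were most like 3 of the members by the same measure over the 39 tumours were as follows. For Fkbp5 they were Tef (r = 0.82), Gprc5b (0.82), Nr1d1 (0.79), Nr1d2 (0.77) and Per2 (0.73). Tef, Nr1d1, Nr1d2 and Per2 are components or outputs of the circadian clock. For Tsc22d3 they were Adamtsl4 (0.75), Fam117b (0.73), Ecm1 (0.73), RP23-98C9.5 (0.72) and Gstp3 (0.72). For Mt1 they were Sod3 (0.88), Ndrg1 (0.87), Eno2 (0.85), Srgn (0.85) and Ecm1 (0.85), all below the value of Mt2, and of these Ndrg1 and Eno2 are known hypoxia-inducible genes. Ecm1, an extracellular matrix protein, was on the lists of both Tsc22d3 and Mt1. The time of day at which tumours were removed is not given in the sources used here.

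Nr3c1, the glucocorticoid receptor gene, had a mean normalized count of 2513 ± 154 (SD, n = 10) in PBS tumours. The mean was 2697 ± 199.5 (SD, n = 9) in the tretinoin group and 2497 ± 236 (SD, n = 10) in the ICT group. Its log2 difference was -0.01 (SE 0.05) for ICT against PBS and 0.10 (SE 0.05) for tretinoin against PBS, and neither passed. It was -0.14 (SE 0.05) for the combination against tretinoin alone, which passed narrowly. Hsd11b1, the enzyme that regenerates active glucocorticoid inside cells, had a lowest, median and highest normalized count of 82.7, 126 and 237 in PBS tumours. After ICT they were 143, 262 and 1025, and Hsd11b1 rose by a log2 fold change of 1.47 (SE 0.32). In the combination Hsd11b1 was 225 ± 33.3 (SD, n = 4) in Non-responders and 590.4 ± 266 (SD, n = 6) in Responders. That log2 difference of 1.40 (SE 0.36) did not pass in edgeR. Hsd11b2, which inactivates the hormone, had a median of at most 10.7 normalized counts in each treatment group.

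Of 13 tested genes for the receptor complex and hormone handling, 3 rose and 0 fell after ICT, beside 14.1% and 7.15% of all genes. The 3 were Hsd11b1, its cofactor enzyme H6pd (log2 fold change 0.32, SE 0.08) and the steroidogenic enzyme Cyp11a1 (0.99, SE 0.19). After tretinoin alone 2 rose and 1 fell, beside 11.5% and 8.95% of all genes. Abcb1a, a drug and steroid transporter gene, rose by a log2 fold change of 0.38 (SE 0.05) and H6pd by 0.17 (SE 0.05). The chaperone cofactor Ptges3 fell by 0.21 (SE 0.06). In the combination against PBS 3 rose and 5 fell, the latter including the chaperones Hsp90aa1 (-0.36, SE 0.06), Hsp90ab1 (-0.13, SE 0.05) and Fkbp4 (-0.47, SE 0.08), in a comparison where 25.7% of all genes rose and 24.5% fell. Abcb1a was the 1 gene of 14 tested here whose interaction term passed (-0.39, SE 0.09), where 0.267% of all genes passed with a negative term. The median log2 fold change of this list after ICT was -0.01, beside -0.02 for all genes.

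Of 19 tested further genes known to be induced by glucocorticoids, 12 rose and 0 fell after ICT, where 14.1% of all genes rose, with a median log2 fold change of 0.44 beside -0.02 for all genes. Per1, a clock gene with a glucocorticoid element, had a lowest, median and highest normalized count of 406, 533 and 1102 in PBS tumours and 1269.8, 2858 and 4022 after ICT. The groups did not overlap, which 0.417% of all genes showed in this direction, and Per1 rose by a log2 fold change of 2.28 (SE 0.22). The decoy interleukin-1 receptor gene Il1r2 rose by 1.04 (SE 0.20), the lipoprotein lipase inhibitor gene Angptl4 by 0.56 (SE 0.11), the repressor gene Bcl6 by 0.44 (SE 0.09), glutamine synthetase gene Glul by 0.41 (SE 0.11) and Txnip, an inhibitor of thioredoxin and glucose uptake, by 0.36 (SE 0.07). After tretinoin alone 3 rose and 1 fell, beside 11.5% and 8.95% of all genes. Pdk4, a regulator of pyruvate use, rose by 1.19 (SE 0.27), the sodium channel gene Scnn1a by 0.55 (SE 0.11) and Glul by 0.27 (SE 0.07). Anxa1, an anti-inflammatory lipid-binding protein, fell by 0.22 (SE 0.07). Per1 was 0.07 (SE 0.25) after tretinoin, which did not pass. Adding tretinoin to ICT raised 0 and lowered 1, beside 1.57% and 0.422% of all genes. The 1 was Irs2, an insulin receptor substrate, which fell by 0.31 (SE 0.08).

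Of 11 inflammatory genes that glucocorticoids are known to repress, 8 rose and 0 fell after ICT, beside 14.1% and 7.15% of all genes. The cause of these rises was not tested. Nos2, inducible nitric oxide synthase, rose by a log2 fold change of 3.01 (SE 0.64), the neutrophil chemokine genes Cxcl2 and Cxcl1 by 1.85 (SE 0.31) and 1.15 (SE 0.21), the monocyte chemokine genes Ccl2 and Ccl7 by 1.16 (SE 0.28) and 0.83 (SE 0.20), and Il6 by 0.93 (SE 0.19). The list's median log2 fold change was 0.93. After tretinoin 2 rose and 1 fell, beside 11.5% and 8.95% of all genes. Il1a rose by 2.38 (SE 0.48) and Cxcl2 by 0.89 (SE 0.25), and the prostaglandin synthase gene Ptgs2 fell by 0.67 (SE 0.14). With tretinoin added to ICT, where 1.57% of all genes rose, Il1a alone rose, by 1.91 (SE 0.41).

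**Figure D5:**
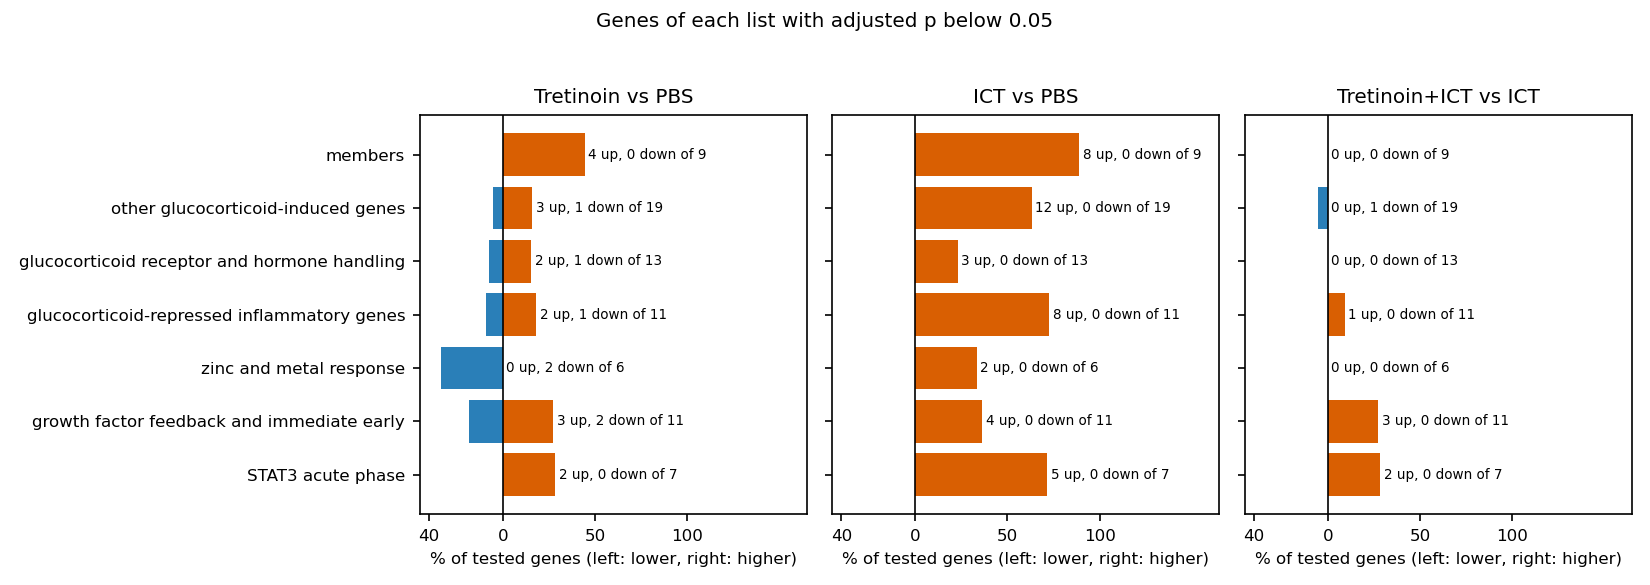
Share of the tested genes of each list that passed an adjusted p of 0.05, higher to the right and lower to the left, in 3 comparisons, with counts printed beside the bars. After ICT 12 of 19 further glucocorticoid-induced genes and 8 of 11 glucocorticoid-repressed inflammatory genes were higher and 0 of either list were lower. Of all genes, 14.1% rose and 7.15% fell after ICT.

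The other signals that act on the members were followed through 3 more lists. Of all genes, 14.1% rose and 7.15% fell after ICT, and 11.5% rose and 8.95% fell after tretinoin. When tretinoin was added to ICT, 1.57% rose and 0.422% fell. These shares stand beside the counts of the 3 lists, and nothing is read from counts near them. Of 6 tested genes of the zinc and metal response, 2 rose after ICT, the zinc exporter gene Slc30a1 by 0.34 (SE 0.11) and the haem oxygenase gene Hmox1 by 0.67 (SE 0.22) on the log2 scale, and after tretinoin 0 rose and 2 fell, the zinc importer gene Slc39a14 by 0.26 (SE 0.04) and the metallothionein gene Mt3 by 1.38 (SE 0.45). Mt3 was low, with a mean normalized count of 21.6 in PBS and 8.44 in tretinoin tumours. The other 4 did not pass after tretinoin, among them Slc30a1 at 0.30 (SE 0.12), and 3 of the 6 had a higher mean. Of 11 genes of growth factor feedback and the immediate early response, 4 rose after ICT, with Atf3 at 2.05 (SE 0.28), Ier3 at 1.03 (SE 0.22), the phosphatase gene Dusp2 at 0.78 (SE 0.22) and Jun at 0.35 (SE 0.07). After tretinoin 3 of them rose, Atf3 by 1.15 (SE 0.29), Ier3 by 0.67 (SE 0.21) and Jun by 0.29 (SE 0.09), and 2 fell, Fos by 1.10 (SE 0.13) and Dusp4 by 0.30 (SE 0.09). Adding tretinoin to ICT raised 3, Junb by 0.55 (SE 0.12), Dusp5 by 0.47 (SE 0.08) and Jun by 0.29 (SE 0.07).

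Of 7 genes of the STAT3 acute-phase response, in which Cebpd also takes part, 5 rose after ICT, beside 14.1% of all genes. The oncostatin M receptor gene Osmr rose by 0.61 (SE 0.10), Stat3 by 0.46 (SE 0.09), Il4ra by 0.43 (SE 0.09), the feedback inhibitor gene Socs3 by 0.52 (SE 0.13) and the acute-phase gene Saa3 by 1.15 (SE 0.40) on the log2 scale. After tretinoin, where 11.5% of all genes rose, 2 of the 7 did, Bcl3 by 0.38 (SE 0.11) and Socs3 by 0.37 (SE 0.12). These were also the 2 that rose when tretinoin was added to ICT, Bcl3 by 1.004 (SE 0.16) and Socs3 by 0.72 (SE 0.15), whereas the log2 difference of Cebpd in that comparison was -0.31 (SE 0.13) and did not pass.

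Cell markers also moved after ICT, where 14.1% of all genes rose and 7.15% fell. All 5 tested neutrophil markers rose after ICT, and their summed level ran from 46.6 through a median of 68.0 to 112 CPM in PBS tumours and from 69.7 through 162 to 255 CPM after ICT. It ran from 57.1 through 76.1 to 162 CPM after tretinoin and from 100.3 through 152 to 249 CPM after the combination. All 5 tested macrophage markers rose after ICT as well, with summed medians of 1377 CPM in PBS, 1692 CPM after tretinoin, 1992 CPM after ICT and 2201 CPM after the combination. Of the 5 endothelial markers 2 fell after ICT. Summed T cell markers ran from 35.8 through a median of 44.9 to 75.7 CPM in PBS tumours. After ICT their sum ran from 29.7 through 35.9 to 126 CPM. Of the 5 T cell markers 0 passed after ICT, and 3 had a higher mean. ICT replicate 3, the highest tumour of its group for Mt1 and Mt2, also had the highest neutrophil sum (255 CPM) and macrophage sum (2845 CPM) of the ICT tumours. Its skeletal muscle sum (1383 CPM) was the highest too, and its T cell sum (111 CPM) ranked 9 of 10 from the lowest. The part of any of these cell types in the members' values was not tested.

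Several members share their locus with another gene. In GENCODE M21 Cebpd overlaps Spidr, Mt2 overlaps Gm45774, Errfi1 overlaps 1700045H11Rik, and Dusp1 overlaps Ergic1, each on the opposite strand, and Fkbp5 overlaps the antisense gene AC154912.1. Whether counting used strand is not given in the sources used here, so reads of these pairs may not be told apart.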

How the data were processed

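The deposited table holds raw read counts per gene for the 39 tumours. Per the study's methods and the submitters' processing notes, the authors aligned 100-bp single-end reads to mm11 with HISAT2 (v2.0.4) and counted them with SummariseOverlaps; strand mode and the handling of multi-mapping reads are not given in the sources used here. Tumours were grouped by treatment and response labels and numbered in accession order within each group. Differences were tested with edgeR (v4.0.16, R 4.3.3) by the quasi-likelihood test with TMM scaling, filterByExpr and robust dispersion, on the tumours of the groups compared, and with an interaction term on all 39. P-values were Benjamini-Hochberg adjusted over all genes tested; called genes had adjusted p < 0.05 and a log2 fold change of at least 1 in size. DESeq2 (v1.42.0) supplied size factors and an alternative test. Standard errors are the log2 fold change over the square root of F. Correlations used log2 CPM with a prior count of 2. The scripts were tested on simulated data. Each mouse gave 1 sequenced tumour. The members and lists were chosen with earlier results of these data known. In each companion list up to 6 genes with the smallest adjusted p among those passing in tretinoin against PBS, ICT against PBS or the combination against ICT were named, plus Nr3c1, Hsd11b1, Hsd11b2 and Per1, with Cyp26b1 as a check; chaperones, markers and overlapping genes outside this rule were named after their values were seen. Identifiers of 7 of 9 members matched GENCODE M21 with version; Fkbp5, Dusp1 and Nr3c1 matched without it. Alternatives were another test, scaling and filter, no fold minimum, 1 fit of all tumours, pairs of name series, name series as a covariate for response, and leaving out each tumour.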

Additional observations from a re-analysis of the deposited data

Results flagged for a closer look

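Within 54 sets of tumours (9 members in each treatment group and each response label), 2 values stood apart from the rest of their group by Dixon's criterion, in which the gap to the nearest tumour is divided by the range of the group and chance alone would mark about 1 set in 20. Dusp1 in tretinoin+ICT replicate 5, a Non-responder, was 2491 normalized counts against 1207 in the next tumour, a gap of 0.631 of the range where 0.466 is the limit for 10 tumours. Mt2 in ICT replicate 3 was 1851 normalized counts against 1198 in the next tumour, a gap of 0.51 of the range. The first tumour was also the highest of its group for 3 members in all and the second likewise for 3. The part of any technical or biological cause was not tested.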

How the results depend on the processing

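For members that passed, no alternative reversed the direction. With all tumours, edgeR called 0 members in tretinoin against PBS, 4 in ICT against PBS, 4 in the combination against tretinoin and 4 in the combination against PBS. Without a fold minimum these were 4, 8, 8 and 8. Name series taken in pairs gave fewer or more: tretinoin series 3 against PBS series 1 and 5 called 2 and 1, ICT series 6 against PBS series 1 and 5 called 2 and 1, and the combination against tretinoin called 0 (series 2 against 3), 2 (2 against 7) and 1 (4 against 3). Leaving out 1 tumour at a time kept the members called at 0 to 0 for tretinoin against PBS, 4 to 5 for ICT against PBS, 0 to 0 for the combination against ICT, 3 to 4 for the combination against tretinoin and 0 to 0 for response. In tretinoin against PBS, genes passing were, without a low-count filter, 1 for zinc and metal, 3 for growth factor feedback and 1 for STAT3; with at least 10 counts in every tumour, 1 for the repressed inflammatory genes and 1 for zinc and metal; and in 1 fit of 39 tumours, 2 for the further glucocorticoid-induced genes, 1 for zinc and metal, 3 for growth factor feedback and 0 for STAT3. In ICT against PBS, zinc and metal had 0 without a filter and 1 in the single fit. In the combination against ICT, growth factor feedback had 6 in DESeq2 and 6 in the single fit, the further induced genes 0 without a filter, and the repressed inflammatory genes 0 with at least 10 counts. The causes were not tested, beyond the smaller number of tumours or genes that a setting leaves. With all tumours kept, counts of all genes called moved by more than 1.5 times in tretinoin against PBS (232; 351 in DESeq2), the combination against ICT (56; 137 in DESeq2, 31 with at least 10 counts, 101 in the single fit), the combination against tretinoin (300; 458 in DESeq2), the combination against PBS (845; 1387 in DESeq2, 1586 without a filter), response (0; 121 in DESeq2) and the interaction (46; 84 in DESeq2, 29 without a filter). Leaving out 1 tumour moved the count of all genes called by more than 1.5 times in ICT against PBS (332; 212 without ICT replicate 3), tretinoin against PBS (153 without tretinoin replicate 3), the combination against ICT (123 without ICT replicate 3) and response (205 without tretinoin+ICT replicate 8 and 1 without replicate 3). Over all such omissions these counts ran from 212 to 416, from 153 to 292, from 43 to 123 and from 0 to 205, and from 208 to 450 for the combination against tretinoin. Of the settings run for single genes, 6684 kept their side of the adjusted threshold, 516 lost the pass and 118 gained it. A change of direction was looked for only where a gene passed in the main fit. Genes that did not pass could change sign. For Zbtb16 after tretinoin the log2 difference was 0.23 with all tumours and ran from -0.41 to 1.04 over pairs of name series. In the combination against ICT, where 0 members passed, Sgk1 and Errfi1 passed in the single fit of all 39 tumours (-0.33 and 0.28). No paired analysis was possible because replicate numbers follow accession order and pair no tumours.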
